A study of Mus musculus with 4 samples.

Results

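The 38 genes of DNA replication and nucleotide supply were chosen by name: they load, fire and drive the replication fork, copy and join the strands, make deoxynucleotides, rebuild chromatin behind the fork, or switch cells into S phase. All 38 symbols were found among the 21552 genes of the count table, and all 38 were among the 13905 genes with enough reads to test. Polyadenylated RNA was sequenced from the remote myocardium (tissue away from the infarct) of 2 infarcted hearts, in which the left anterior descending coronary artery had been permanently ligated, and from the hearts of 2 uninjured mice. All mice were C57BL/6, and each library is 1 mouse. No time after infarction is stated beyond the mark 7d in the library names, which the uninjured libraries carry too. The age and sex of the mice are not stated in the labels used here. Values are reads per gene, scaled to CPM, a share of the TMM-normalized library total, and each pair of values is given as replicate 1 and then replicate 2. Fold changes are log2 of infarcted over uninjured hearts, with the standard error (SE) after the ± sign.

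In G1, the origin recognition complex (ORC), CDC6 and CDT1 load the MCM2-7 ring onto DNA, and geminin later blocks CDT1 so that no origin is licensed again in the same cycle. CDC45 and the GINS complex turn the ring into an active helicase. Polymerase alpha extends the primers, and polymerases epsilon and delta copy the strands on the sliding clamp PCNA. Deoxynucleotides come from ribonucleotide reductase, thymidylate synthase and thymidine kinase. Many of these genes are known targets of E2F transcription factors and are expressed around the G1/S transition. Most cardiomyocytes of the adult mouse heart have left the cell cycle, whereas cardiac fibroblasts, endothelial cells and macrophages can divide.

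Promoters of 31 of the 38 genes were found in the RefSeq table of mouse assembly GRCm38.p6, each from 250 bases before to 50 bases after the annotated start. An E2F site, searched as TTTGGCGC, TTTCGCGC, TTTCCCGC or TTTGCCGC on either strand, with each promoter counted once however many matches it held, stood in 13 of these 31 (41.9%). The same letters stood in the promoters of 2.61% of all 27025 genes of that table and of 4.45% of the 10737 tested genes in it. The 200 bases before the start are printed below for 4 of the 13, chosen to set 3 genes that rose strongly (Mcm6, Mcm5 and Uhrf1) beside 1 that was not called (Pola1). Capitals mark every E2F match on either strand, matches that overlap run together, sequences are written 5′ to 3′ in the direction of the gene, and the Uhrf1 window belongs to 1 of its 2 listed starts.
Mcm6 chr1:128359706-128359905 (- strand): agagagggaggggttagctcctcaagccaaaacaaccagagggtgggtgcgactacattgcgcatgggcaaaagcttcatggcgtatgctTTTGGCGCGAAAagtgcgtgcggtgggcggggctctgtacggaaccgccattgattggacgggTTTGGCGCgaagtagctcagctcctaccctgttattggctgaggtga
Mcm5 chr8:75109309-75109508 (+ strand): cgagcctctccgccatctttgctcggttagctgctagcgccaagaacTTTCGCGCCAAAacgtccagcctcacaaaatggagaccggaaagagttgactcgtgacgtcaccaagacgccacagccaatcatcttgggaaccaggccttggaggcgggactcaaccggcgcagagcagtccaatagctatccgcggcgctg
Uhrf1 chr17:56304113-56304312 (+ strand): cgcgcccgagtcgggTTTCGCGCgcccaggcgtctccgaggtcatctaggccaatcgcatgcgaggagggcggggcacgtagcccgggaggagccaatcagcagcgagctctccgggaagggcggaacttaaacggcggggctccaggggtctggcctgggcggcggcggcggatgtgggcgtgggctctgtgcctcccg
Pola1 chrX:93632156-93632355 (- strand): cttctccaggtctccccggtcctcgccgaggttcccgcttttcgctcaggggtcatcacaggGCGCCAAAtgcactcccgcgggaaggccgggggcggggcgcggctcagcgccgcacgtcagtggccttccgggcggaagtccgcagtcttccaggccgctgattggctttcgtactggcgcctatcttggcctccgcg

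Mcm6 holds 3 such matches, which begin at positions -110, -106 and -47 from its start, the first 2 overlapping on opposite strands. Mcm5 holds 2, which overlap in the same way at -153 and -149. Uhrf1 and Pola1 hold 1 each in the printed stretch, Pola1 in the reverse orientation. The match stood in 8 of the 17 genes with a promoter that were called higher in infarcted hearts, and in 5 of the other 14. Outside the 38 genes, 91 of 465 tested genes with the match were called higher (19.6%), close to the 18.0% of the 10241 without it. A CCAAT box stood in 18 of the 31 promoters (58.1%), against 41.1% of all genes and 42.4% of tested genes. The cell cycle genes homology region, searched as TTTGAA or TTCGAA on either strand, stood in 6 of 31 (19.4%), between the 21.7% of all genes and the 16.3% of tested genes, and in 0 of the 17 called higher. Outside the 38 genes, 21.5% of tested genes with it were called higher, against 17.4% of those without it. These are matches of letters and not shown sites of binding. No promoter was listed for Prim2, Mcm4, Gins1, Gins2, Ccne2, Gmnn or Pole.

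The libraries held 46232326 and 35715115 reads in infarcted hearts, against 53944859 and 70885393 in uninjured hearts, and the share from mitochondrial genes was 36.7% to 42.0% in infarcted hearts, against 41.4% to 48.4% in uninjured hearts. Markers of several cell types differed between the groups. Macrophage markers, 8 of 8 called higher, summed to 335 and 351 CPM in infarcted hearts, against 126 and 113 CPM in uninjured hearts. Fibroblast markers, 5 of 8 called higher, summed to 5493 and 3981 CPM in infarcted hearts, against 677 and 670 CPM in uninjured hearts. Endothelial markers, 0 of 6 called, summed to 973 and 849 CPM in infarcted hearts, against 764 and 748 CPM in uninjured hearts. Cardiomyocyte markers, 4 of 8 called lower and all detected, summed to 27375 and 25118 CPM in infarcted hearts, against 41883 and 50374 CPM in uninjured hearts. Neutrophil markers, 2 of 4 tested called higher and Ly6g at 0 in all 4 libraries, summed to 11.9 and 20.5 CPM in infarcted hearts, against 5.05 and 4.28 CPM in uninjured hearts. Lymphocyte markers, 1 of 8 called lower, summed to 4.34 and 1.55 CPM in infarcted hearts, against 6.47 and 6.16 CPM in uninjured hearts. Atrial markers, 0 of 3 tested called, summed to 295 and 2009 CPM in infarcted hearts, against 88.8 and 49.5 CPM in uninjured hearts. Of these, Sln and Mybphl were at 0 in infarcted replicate 1, whereas infarcted replicate 2 held 132 CPM of Myl7 and 361 CPM of Myl4. The part of these cell types in the levels of the replication genes was not tested. The summed fibroblast markers had their higher infarcted value in replicate 1, and the summed macrophage markers in replicate 2. Taken singly, 4 of 8 fibroblast and 3 of 8 macrophage markers were higher in infarcted replicate 1 than in replicate 2. The same held for 6 of 8 cardiomyocyte, 5 of 6 endothelial, 8 of 8 lymphocyte and 6 of 6 erythroid markers. It held for 1 of 6 neutrophil and 0 of 5 atrial markers.

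Of the 38 replication genes, 21 were called higher in infarcted than in uninjured hearts and 2 lower, Dut and Gmnn, at an adjusted p below 0.05 (edgeR quasi-likelihood test, adjusted over all 13905 genes), and 15 were not called. Among all genes tested, 18.3% were called higher and 14.6% lower. The median log2 fold change was 1.07 over the 38 genes and 0.02 over all genes. In 27 of the 38 both infarcted hearts lay above both uninjured hearts, which was so for 36.2% of all genes, and in 3 genes (Dut, Gmnn and Rfc4) both lay below, which was so for 33.8%. Only Orc1 reached the read minimum through the infarcted hearts alone, and 20 of the other 37 were called higher. In bulk tissue, fewer cells of a type and less RNA per cell cannot be told apart.

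The infarcted hearts differed from each other across all of these genes. All 38 genes had their higher infarcted value in replicate 1, by a median of 1.64 times over replicate 2 (lowest 1.15 for Gmnn, highest 2.52 for Cdt1), whereas 50% of all tested genes had it there. Between the uninjured hearts the median ratio was 1.01, and replicate 1 was the higher one in 20 of 38. Summed over the 38 genes, the hearts held 405 and 238 CPM when infarcted, against 189 and 200 CPM when uninjured. Without infarcted replicate 1 the median log2 fold change of the 38 genes was 0.45, with 14 called higher and 2 lower, beside 15.1% and 11.3% of all genes. Without infarcted replicate 2 it was 1.42, with 25 called higher and 2 lower, beside 14.1% and 8.87% of all genes. Without uninjured replicate 1, 11 were called higher and 2 lower, beside 13.6% and 13.7% of all genes. Without uninjured replicate 2, 0 were called by edgeR, beside 2.43% of all genes higher and 0.431% lower. In that fit 17 higher and 2 lower had an unadjusted p below 0.05 (17.7% and 13.7% of all genes), and DESeq2 called 12 higher and 1 lower (9.08% and 4.51%). DESeq2 called 9 higher and 2 lower without infarcted replicate 1 (10.4% and 8.69% of all genes), 21 and 1 without infarcted replicate 2 (9.84% and 6.28%), and 15 and 2 without uninjured replicate 1 (14.0% and 12.5%).

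Other settings were also run on all 4 libraries. RLE factors gave 20 higher and 2 lower (18.0% and 15.4% of all genes), and no filter 20 and 2 (15.1% and 12.7%). Removal of the length trend gave 20 and 2 (17.5% and 14.1%). Calls by limma-voom were 19 and 2 (18.0% and 14.3%), and by DESeq2 22 and 2 (17.0% and 14.9%). With library totals alone as the scale, 30 were higher and 2 lower, beside 31.5% and 5.65% of all genes, and the median of all genes was 0.36. The 9 gained there were Mcm2, Mcm7, Pcna, Cdc45, Pola1, Rfc5, Fen1, Ccne1 and Ccne2. Of genes near the threshold, Mcm3 lost its call with no filter, with the length trend removed and in limma-voom (adjusted p of 0.0704, 0.0588 and 0.0738). Cdt1 lost its call under RLE factors, with the length trend removed and in limma-voom (adjusted p of 0.0527, 0.0738 and 0.0849), and Uhrf1 with no filter (adjusted p = 0.0506). Called in addition were Mcm7 with no filter, Pcna with the length trend removed and Mcm2 by DESeq2 (adjusted p of 0.0348, 0.0472 and 0.00994).

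**Figure D1:**
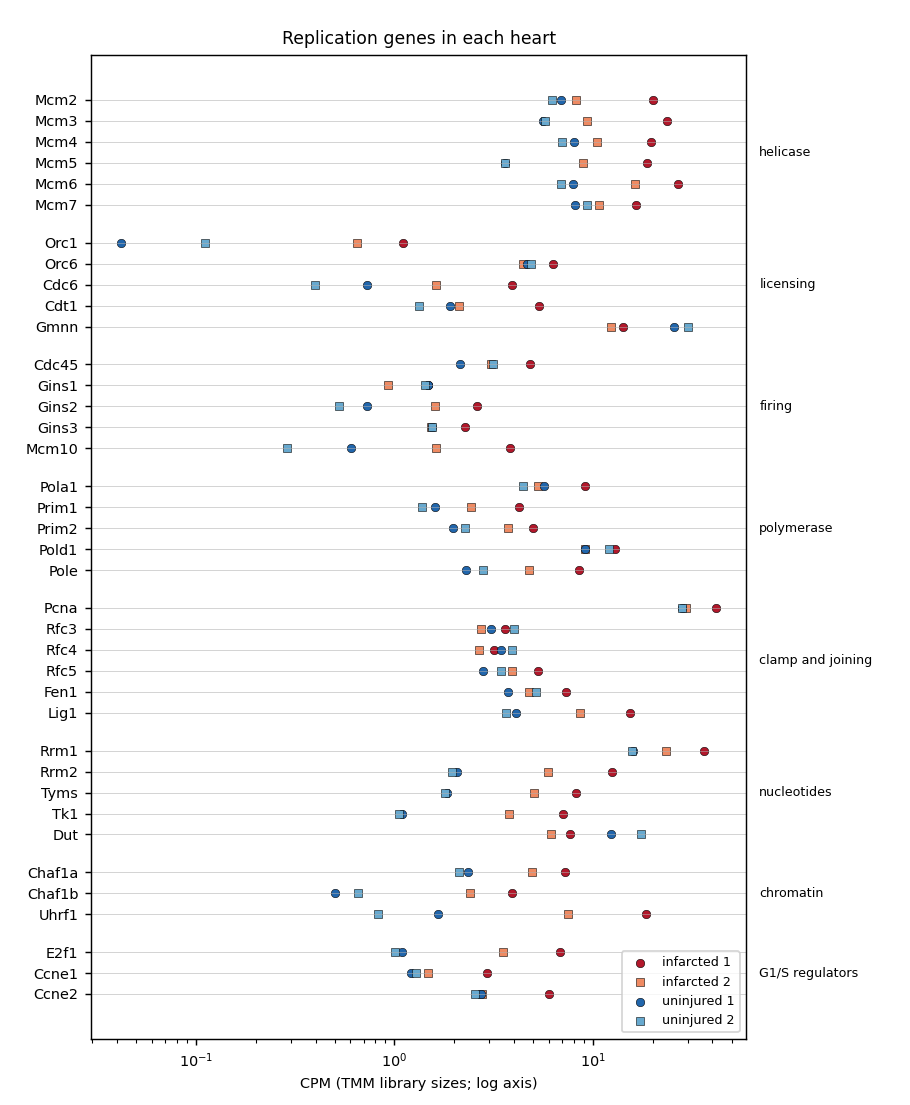
CPM of each of the 38 genes (log axis) in infarcted replicates 1 and 2 (red circle, orange square) and uninjured replicates 1 and 2 (dark blue circle, light blue square), with genes grouped by role at the right. The red circle lies right of the orange square for all 38 genes, and both lie right of both blue marks for 27.

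Of the 6 subunits of the MCM2-7 ring, the motor of the replicative helicase, 4 were called higher. The median log2 fold change of the 6 was 1.32, and both infarcted hearts lay above both uninjured hearts for all 6. Among all genes tested, 18.3% were called higher. Both infarcted hearts lay above both uninjured hearts in 36.2% of all genes and below in 33.8%. The same shares stand beside the groups of genes below. Mcm2 had 20.1 and 8.20 CPM in infarcted hearts, against 6.93 and 6.21 CPM in uninjured hearts. Mcm3 had 23.5 and 9.35 CPM in infarcted hearts, against 5.57 and 5.75 CPM in uninjured hearts. Mcm4 had 19.7 and 10.4 CPM in infarcted hearts, against 8.06 and 6.96 CPM in uninjured hearts. In each of these 3 genes infarcted replicate 1 stood far above the other 3 hearts. Infarcted replicate 2 was closer in CPM to the uninjured hearts than to its partner, which held for Mcm5, Mcm6 and Mcm7 too. Mcm5 had 18.8 and 8.94 CPM in infarcted hearts, against 3.59 and 3.62 CPM in uninjured hearts. Mcm6 had 27.0 and 16.2 CPM in infarcted hearts, against 7.97 and 6.94 CPM in uninjured hearts. Mcm7 had 16.6 and 10.8 CPM in infarcted hearts, against 8.16 and 9.36 CPM in uninjured hearts. Mcm5 and Mcm6 kept a wide gap between the groups in both infarcted hearts, and Mcm7 a narrow one. Mcm5 rose by 1.95 ± 0.33 on the log2 scale (edgeR adjusted p = 0.00179) and Mcm6 rose by 1.54 ± 0.25 on the log2 scale (edgeR adjusted p = 0.000771). Mcm3 rose by 1.54 ± 0.43 on the log2 scale (edgeR adjusted p = 0.0377) and Mcm4 rose by 1.01 ± 0.28 on the log2 scale (edgeR adjusted p = 0.0187). Mcm2 had a log2 fold change of 1.11 ± 0.40 (edgeR adjusted p = 0.0805) and Mcm7 had a log2 fold change of 0.64 ± 0.24 (edgeR adjusted p = 0.0564), so neither was called. Without infarcted replicate 1 the calls of Mcm3 (log2 fold change 0.66) and Mcm4 (0.41) were lost, and without infarcted replicate 2 Mcm2 (1.58) and Mcm7 (0.89) were called too. Without uninjured replicate 1 the calls of Mcm3, Mcm4 and Mcm5 were lost at log2 fold changes of 1.52, 1.11 and 1.94. Without infarcted replicate 1 Mcm5 stayed called at 1.24.

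Because the ring holds each subunit once, the 6 levels were also set per length of the longest coding transcript (RPKM). In infarcted hearts the 6 subunits spanned 5.48 to 7.75 RPKM in replicate 1, from Mcm4 to Mcm3, and 2.43 to 3.73 RPKM in replicate 2, from Mcm2 to Mcm6. In uninjured hearts they spanned 1.06 to 2.76 RPKM in replicate 1 and 1.07 to 3.16 RPKM in replicate 2, from Mcm5 to Mcm7 in both. The highest subunit was thus 1.42 and 1.53 times the lowest in infarcted hearts, against 2.59 and 2.96 times in uninjured hearts. The subunit that was scarcest per length in uninjured hearts, Mcm5, had the largest log2 fold change of the 6, and the most abundant, Mcm7, the smallest. These levels share the uninjured libraries with the fold changes, so this order is a description. Exons of Mcm7 are overlapped on the opposite strand by Ap4m1 and Cops6, whose reads its count may include. Next below Mcm7 in uninjured hearts was Mcm4, at 2.25 and 1.94 RPKM.

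**Figure D2:**
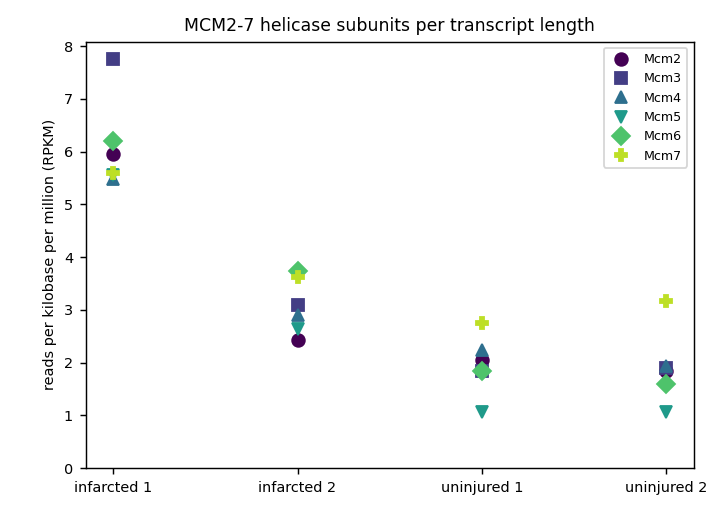
RPKM of the 6 MCM2-7 subunits in each heart, infarcted hearts left and uninjured hearts right, 1 marker for each subunit. The subunits lie within 1.42 and 1.53 times of each other in infarcted hearts, against 2.59 and 2.96 times in uninjured hearts, where Mcm5 is lowest and Mcm7 highest. Mcm7 reads may include those of genes that overlap it on the opposite strand.

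Among the licensing factors, 4 of the chosen genes (Orc1, Orc6, Cdc6 and Cdt1) encode proteins that load that ring, and 3 were called higher. The gene of the CDT1 inhibitor was called lower. Cdc6, an ATPase that joins ORC at the origin, had 3.90 and 1.62 CPM in infarcted hearts, against 0.731 and 0.398 CPM in uninjured hearts and rose by 2.31 ± 0.48 on the log2 scale (edgeR adjusted p = 0.00397). Cdt1, the partner that brings the ring, had 5.34 and 2.12 CPM in infarcted hearts, against 1.90 and 1.32 CPM in uninjured hearts and rose by 1.22 ± 0.43 on the log2 scale (edgeR adjusted p = 0.0495). Orc1, the largest subunit of ORC, had 55 and 27 reads in infarcted hearts, against 2 and 7 reads in uninjured hearts, and rose by 3.41 ± 0.61 on the log2 scale (edgeR adjusted p = 0.00116). Groups did not overlap for these 3 genes, but Orc1 rested on 2 and 7 reads in uninjured hearts, and Cdt1 of infarcted replicate 2 lay just above uninjured replicate 1. Orc6, a further ORC subunit, had 6.28 and 4.43 CPM in infarcted hearts, against 4.68 and 4.89 CPM in uninjured hearts, which overlap, and had a log2 fold change of 0.16 ± 0.26 (edgeR adjusted p = 0.659). Gmnn encodes geminin, the inhibitor of CDT1, and its gene (ENSMUSG00000006715, GRCm38 chr13:24751845-24761923, - strand) had 14.2 and 12.3 CPM in infarcted hearts, against 25.7 and 30.3 CPM in uninjured hearts. Both infarcted hearts lay near the same level, well below both uninjured hearts, and Gmnn fell by 1.08 ± 0.20 on the log2 scale (edgeR adjusted p = 0.0016). For every 100 Gmnn counts the libraries held 37.6 and 17.2 Cdt1 counts in infarcted hearts, against 7.39 and 4.36 in uninjured hearts. The call of Cdt1 was lost without infarcted replicate 1 (log2 fold change 0.33) and without uninjured replicate 1 (1.50), and that of Cdc6 without uninjured replicate 1 (2.79), whereas Gmnn was still called without any 1 library other than uninjured replicate 2. The value of Gmnn was -0.65, still called, with the length trend removed, and that of Cdc6 was 1.47, still called, without infarcted replicate 1.

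Of the 5 chosen factors that fire the loaded helicase, Mcm10 and Gins2 rose and the other 3 were not called. Further firing factors are among the other replication factors described below. Mcm10, a scaffold of origin firing, had 3.82 and 1.62 CPM in infarcted hearts, against 0.605 and 0.287 CPM in uninjured hearts and rose by 2.63 ± 0.51 on the log2 scale (edgeR adjusted p = 0.00272). Gins2, a GINS subunit, had 2.60 and 1.60 CPM in infarcted hearts, against 0.731 and 0.526 CPM in uninjured hearts and rose by 1.75 ± 0.41 on the log2 scale (edgeR adjusted p = 0.00562). Both genes were low in every heart, with infarcted hearts above uninjured ones. Gins1 and Gins3, partners of Gins2 in the same complex, were not called. Gins1 had 1.48 and 0.930 CPM in infarcted hearts, against 1.48 and 1.42 CPM in uninjured hearts and had a log2 fold change of -0.26 ± 0.38 (edgeR adjusted p = 0.633). Gins3 had 2.28 and 1.53 CPM in infarcted hearts, against 1.54 and 1.54 CPM in uninjured hearts and had a log2 fold change of 0.30 ± 0.35 (edgeR adjusted p = 0.543). In both genes infarcted replicate 2 was at or below the level of the uninjured hearts. Cdc45, the helicase cofactor, had 4.82 and 3.08 CPM in infarcted hearts, against 2.13 and 3.14 CPM in uninjured hearts, with overlap, and had a log2 fold change of 0.58 ± 0.32 (edgeR adjusted p = 0.181). The call of Gins2 was lost without uninjured replicate 1, at a log2 fold change of 2.00. Without infarcted replicate 1 the value of Gins3 turned to -0.08 and that of Orc6 to -0.18, and without infarcted replicate 2 that of Gins1 turned to 0.0043.

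Among the chosen polymerase and primase genes, 3 of 5 rose. Pole, the catalytic subunit of leading-strand polymerase epsilon, had 8.56 and 4.77 CPM in infarcted hearts, against 2.30 and 2.79 CPM in uninjured hearts and rose by 1.39 ± 0.31 on the log2 scale (edgeR adjusted p = 0.00438). Prim1, the catalytic primase subunit, had 4.22 and 2.43 CPM in infarcted hearts, against 1.61 and 1.37 CPM in uninjured hearts and rose by 1.16 ± 0.35 on the log2 scale (edgeR adjusted p = 0.0208). Prim2, its regulatory partner, had 5.0 and 3.72 CPM in infarcted hearts, against 1.98 and 2.26 CPM in uninjured hearts and rose by 1.04 ± 0.29 on the log2 scale (edgeR adjusted p = 0.0157). None of the 3 had overlapping groups. Pola1, the polymerase subunit that extends the primers these 2 proteins make, had 9.08 and 5.27 CPM in infarcted hearts, against 5.70 and 4.46 CPM in uninjured hearts and had a log2 fold change of 0.50 ± 0.28 (edgeR adjusted p = 0.194). Pold1, of lagging-strand polymerase delta, had 12.9 and 9.08 CPM in infarcted hearts, against 9.08 and 12 CPM in uninjured hearts and had a log2 fold change of 0.06 ± 0.24 (edgeR adjusted p = 0.879). Both overlapped between the groups. The calls of Pole, Prim1 and Prim2 were lost without infarcted replicate 1, at log2 fold changes of 0.84, 0.64 and 0.74, and without uninjured replicate 1, at 1.26, 1.28 and 0.95. Without infarcted replicate 1 the value of Pola1 was -0.01 and that of Pold1 -0.28.

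The sliding clamp, its loader and the enzymes that process Okazaki fragments had 1 gene called of the 6 chosen. Lig1, which joins Okazaki fragments, had 15.3 and 8.61 CPM in infarcted hearts, against 4.09 and 3.66 CPM in uninjured hearts and rose by 1.63 ± 0.28 on the log2 scale (edgeR adjusted p = 0.00106). Without infarcted replicate 1 the value of Lig1 was 1.08, still called. Pcna, the clamp, had 41.9 and 29.6 CPM in infarcted hearts, against 28.3 and 28.2 CPM in uninjured hearts, and had a log2 fold change of 0.34 ± 0.21 (edgeR adjusted p = 0.225). Fen1, the flap endonuclease, had 7.32 and 4.79 CPM in infarcted hearts, against 3.72 and 5.14 CPM in uninjured hearts and had a log2 fold change of 0.45 ± 0.28 (edgeR adjusted p = 0.237). For Pcna, infarcted replicate 2 stood just above the uninjured pair and replicate 1 carried the difference, and Fen1 overlapped. Rfc3, a subunit of the clamp loader, had 3.62 and 2.72 CPM in infarcted hearts, against 3.05 and 4.01 CPM in uninjured hearts and had a log2 fold change of -0.16 ± 0.29 (edgeR adjusted p = 0.717). Rfc4, a further subunit, had 3.18 and 2.67 CPM in infarcted hearts, against 3.44 and 3.90 CPM in uninjured hearts and had a log2 fold change of -0.33 ± 0.28 (edgeR adjusted p = 0.394). Rfc5 had 5.28 and 3.93 CPM in infarcted hearts, against 2.80 and 3.42 CPM in uninjured hearts and had a log2 fold change of 0.57 ± 0.28 (edgeR adjusted p = 0.138). The 3 loader subunits thus lay on both sides of 0, and none was called. Pcna has pseudogenes named Pcna-ps1 and Pcna-ps2, whose reads its count may share. Pseudogenes were found by name only, so their sequences were not compared and copies under other names were not searched.

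**Figure D3:**
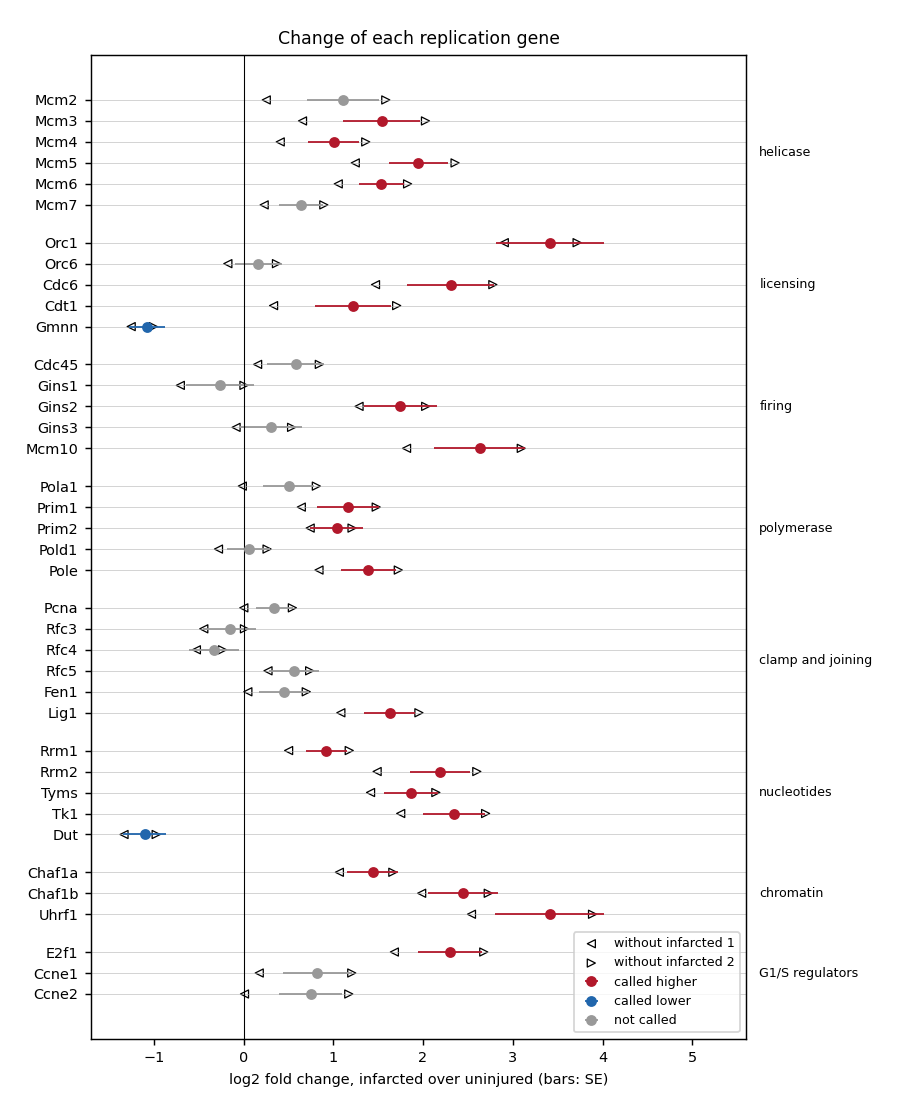
Log2 fold change of each of the 38 genes, infarcted over uninjured, with its SE as a bar and colour for the edgeR call (red higher, blue lower, grey not called), and open triangles for the value without infarcted replicate 1 (left-pointing) or 2 (right-pointing). For 38 of 38 genes the value lies further left without infarcted replicate 1 than without replicate 2, and Gmnn, Dut and Rfc4 lie left of 0 in both.

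All 5 of the chosen nucleotide supply genes were called, 4 higher and 1 lower. Rrm2, the small S-phase subunit of ribonucleotide reductase, had 12.4 and 5.91 CPM in infarcted hearts, against 2.07 and 1.96 CPM in uninjured hearts and rose by 2.19 ± 0.34 on the log2 scale (edgeR adjusted p = 0.0008). Rrm1, the large subunit, had 36.5 and 23.5 CPM in infarcted hearts, against 16.0 and 15.7 CPM in uninjured hearts and rose by 0.92 ± 0.23 on the log2 scale (edgeR adjusted p = 0.00772). Tyms, which makes dTMP from dUMP, had 8.18 and 5.08 CPM in infarcted hearts, against 1.84 and 1.80 CPM in uninjured hearts and rose by 1.87 ± 0.30 on the log2 scale (edgeR adjusted p = 0.000565). Groups stood clearly apart in all 3, with infarcted replicate 1 highest. Tk1, the cytosolic thymidine kinase, had 7.06 and 3.77 CPM in infarcted hearts, against 1.09 and 1.05 CPM in uninjured hearts and rose by 2.34 ± 0.35 on the log2 scale (edgeR adjusted p = 0.00035). Dut encodes the dUTPase, which clears dUTP and yields the dUMP that TYMS uses, and its gene (ENSMUSG00000027203, GRCm38 chr2:125247190-125258608, + strand) had 7.70 and 6.17 CPM in infarcted hearts, against 12.3 and 17.4 CPM in uninjured hearts. Both infarcted hearts lay below both uninjured hearts, and Dut fell by 1.10 ± 0.24 on the log2 scale (edgeR adjusted p = 0.00376). Tyms has a pseudogene, Tyms-ps, whose reads its count may share. The call of Rrm1 was lost without infarcted replicate 1 (log2 fold change 0.50) and without uninjured replicate 1 (0.94).

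Ratios between counts of the same library do not depend on how libraries are scaled. For every 100 Rrm1 counts there were 34.0 and 25.2 Rrm2 counts in infarcted hearts, against 12.9 and 12.5 in uninjured hearts. Rrm2b, the reductase subunit known for supplying cells outside S phase, had 20.2 and 21.4 CPM in infarcted hearts, against 28.7 and 19.1 CPM in uninjured hearts and had a log2 fold change of -0.20 ± 0.22 (edgeR adjusted p = 0.522). Against 100 counts of it there were 61.5 and 27.6 Rrm2 counts in infarcted hearts and 7.19 and 10.3 in uninjured hearts. Tk1 stood at 115 and 42.8 counts for every 100 of Tk2, the mitochondrial thymidine kinase, in infarcted hearts, against 12.8 and 9.38 in uninjured hearts. Tyms stood at 106 and 82.2 counts for every 100 Dut counts in infarcted hearts, against 14.9 and 10.3 in uninjured hearts. In each of these ratios both infarcted hearts lay above both uninjured hearts. The ratios reuse the counts behind the fold changes, so this order is a description and not added support. Against Mki67, a marker of cycling cells, the order was the other way: 10.4 and 13.7 Tk1 counts per 100 Mki67 counts in infarcted hearts, against 23.9 and 34.7 in uninjured hearts.

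**Figure D4:**
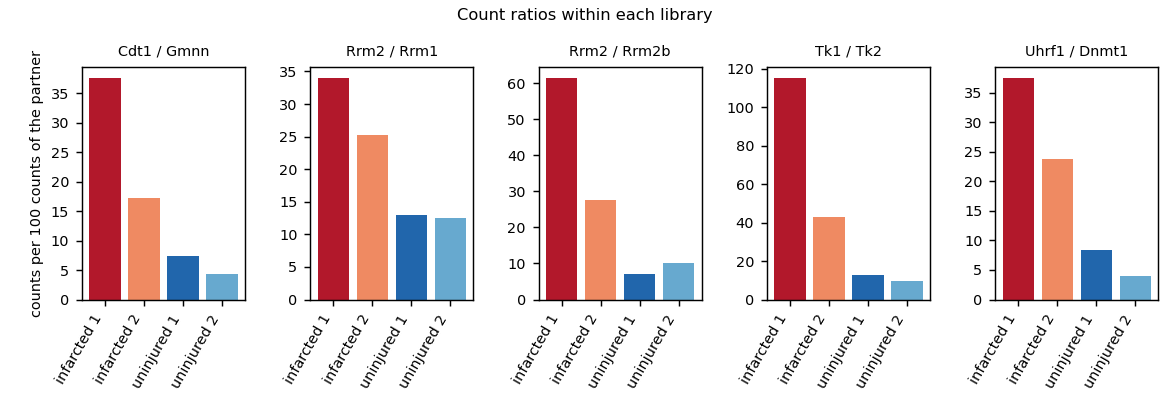
Counts of 1 gene for every 100 counts of its partner in the same library, in 5 panels with axes that start at 0 and differ in scale (bars: infarcted replicates 1 and 2 in red and orange, uninjured replicates 1 and 2 in dark and light blue). Both infarcted bars stand above both uninjured bars in all 5 panels, for example 37.6 and 17.2 Cdt1 counts per 100 Gmnn counts in infarcted hearts, against 7.39 and 4.36 in uninjured hearts. The bars reuse the counts behind the fold changes.

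All 3 of the chosen genes that restore chromatin behind the fork rose. Of 15 other genes of replication-coupled chromatin, described further below, 5 were called higher and 1 lower. Uhrf1, which recruits the maintenance methyltransferase DNMT1 to hemimethylated DNA, had 18.5 and 7.49 CPM in infarcted hearts, against 1.65 and 0.828 CPM in uninjured hearts and rose by 3.41 ± 0.61 on the log2 scale (edgeR adjusted p = 0.0152). Chaf1a, the large subunit of chromatin assembly factor 1, had 7.22 and 4.91 CPM in infarcted hearts, against 2.36 and 2.12 CPM in uninjured hearts and rose by 1.44 ± 0.28 on the log2 scale (edgeR adjusted p = 0.00225). Chaf1b, the middle subunit of that factor, had 3.92 and 2.41 CPM in infarcted hearts, against 0.501 and 0.653 CPM in uninjured hearts and rose by 2.44 ± 0.39 on the log2 scale (edgeR adjusted p = 0.000556). In all 3 the infarcted hearts stood above both uninjured hearts, and for Uhrf1 the replicates of each group also differed widely. Dnmt1 itself had 49.3 and 31.4 CPM in infarcted hearts, against 19.8 and 20.5 CPM in uninjured hearts and rose by 1.0 ± 0.22 on the log2 scale (edgeR adjusted p = 0.00469). The call of Dnmt1 was lost without infarcted replicate 1 (log2 fold change 0.58) and without uninjured replicate 1 (0.98). For every 100 Dnmt1 counts there were 37.6 and 23.8 Uhrf1 counts in infarcted hearts, against 8.32 and 4.04 in uninjured hearts.

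Of the regulators of S-phase entry, E2f1, the transcription factor, had 6.80 and 3.50 CPM in infarcted hearts, against 1.09 and 1.0 CPM in uninjured hearts and rose by 2.30 ± 0.36 on the log2 scale (edgeR adjusted p = 0.000481). The 2 cyclins that activate CDK2 at that step were not called. Ccne1 had 2.94 and 1.48 CPM in infarcted hearts, against 1.21 and 1.29 CPM in uninjured hearts and had a log2 fold change of 0.82 ± 0.39 (edgeR adjusted p = 0.122). Ccne2 had 6.02 and 2.77 CPM in infarcted hearts, against 2.71 and 2.53 CPM in uninjured hearts and had a log2 fold change of 0.75 ± 0.35 (edgeR adjusted p = 0.122). Groups did not overlap for either, but infarcted replicate 2 lay close to the uninjured hearts, and both cyclins were called without infarcted replicate 2 (log2 fold changes of 1.21 and 1.17). Cdk2, the kinase, had 12.1 and 9.30 CPM in infarcted hearts, against 10.6 and 8.86 CPM in uninjured hearts and had a log2 fold change of 0.14 ± 0.23 (edgeR adjusted p = 0.666).

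The rest of the replication pathway was read from lists of further genes, to be set beside the 18.3% of all genes called higher and the 14.6% called lower. Of 40 other replication factors, 12 were called higher (30.0%) and 2 lower (5.0%), with a median log2 fold change of 0.19. Those with the smallest p were Dtl, a substrate receptor of the ligase that degrades CDT1 (3.38 ± 0.46), Ticrr, which helps load CDC45 (3.71 ± 0.58), Dbf4, the activator of the CDC7 kinase (2.08 ± 0.34), and Clspn, a mediator of the replication checkpoint (3.41 ± 0.51), all higher. Ticrr, with 7 and 5 reads in uninjured hearts, and Dscc1 reached the read minimum through the infarcted hearts alone, so they entered the test only because they were high there. The 2 lower ones were Rnaseh2a and Rnaseh2c, subunits of the enzyme that removes ribonucleotides from DNA (-0.70 ± 0.23 and -0.78 ± 0.24). Of 32 other nucleotide supply genes 3 were higher (9.38%), Mthfd2 of mitochondrial folate metabolism (1.87 ± 0.28), Dck and Ctps. A further 4 were lower (12.5%): Dhodh of pyrimidine synthesis (-1.19 ± 0.23), Dguok, the mitochondrial deoxyguanosine kinase (-1.12 ± 0.23), Dctpp1, a dCTP pyrophosphatase (-1.11 ± 0.24), and Adsl. Both shares are below those of all genes, and the median of the 32 was -0.13. With the length trend removed Dctpp1 was not called, at -0.46. Of 15 genes of replication-coupled chromatin, 5 were higher (Hells, Dnmt1, Asf1b, Hmgb2 and Atad2) and Asf1a was lower. The calls of Dnmt1, Asf1b and Hmgb2 were lost without infarcted replicate 1 and without uninjured replicate 1. Of 26 genes of G1/S control, 9 were higher, among them Myc (2.09 ± 0.24), Cdkn1a, which encodes the CDK inhibitor p21 (2.35 ± 0.29), and E2f7, an E2F repressor (2.96 ± 0.44). Cdkn1c, which encodes the CDK inhibitor p57, was lower (-1.96 ± 0.23), with E2f6 and Fbxw7. All called values in this paragraph passed the edgeR test over all genes. Of 8 genes of later cycle stages and general proliferation 7 were called higher, all but Top2a, and the median log2 fold change of the 8 was 3.65. Top2a had a log2 fold change of 3.75 ± 0.87 (edgeR adjusted p = 0.0719). It had 52.3 and 20.9 CPM in infarcted hearts, against 3.99 and 1.53 CPM in uninjured hearts. Mki67 had 68.0 and 27.6 CPM in infarcted hearts, against 4.55 and 3.03 CPM in uninjured hearts, so here too infarcted replicate 1 was the higher one. Its call was lost with no filter (adjusted p = 0.0616).

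The deposited percent inclusion of exons and splice sites gave a second readout of the same libraries. It listed 458 events in 37 of the 38 genes, of which 53 had at least 10 reads in every library. Of 20 exons with that depth, 17 were included at 95% or more in every library. Only 3 events, in Gmnn and Dut, had reads of both forms enough to be tested, and none was called. Gmnn used its most common 5′ splice site in 81.1% and 86.1% of reads in infarcted hearts, with exact binomial 95% intervals of 68.0% to 90.6% and 70.5% to 95.3%, against 76.1% and 72.3% in uninjured hearts, with intervals of 65.9% to 84.6% and 62.2% to 81.1% (edgeR adjusted p = 0.841 over 8426 events). Its alternative site was used in 17.0% and 11.1% of reads in infarcted hearts, against 23.9% and 25.5% in uninjured hearts (edgeR adjusted p = 0.801). These values rest on 36 to 94 reads in each heart. A 45-nucleotide exon of Dut (mm9 chr2:125076709-125076753) was included in 98.0% and 100% of reads in infarcted hearts, against 100% and 98.4% in uninjured hearts. The intervals cover counting error only. Over all genes 0 events were called by edgeR, with 544 at an unadjusted p below 0.05, and limma called 0 with 614.

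For 13 of the 38 genes an exon is overlapped by a gene on the opposite strand, and the labels do not say whether counting used the strand, so their reads may include the neighbour's. These are Ccne2, Cdc45, Chaf1a, Fen1, Gins2, Lig1, Mcm7, Orc1, Orc6, Pole, Rfc4, Rfc5 and Tk1. The overlap is longest for Gins2 with Gse1, at 2758 bases, and for Chaf1a with Ubxn6, at 2542 bases. Gmnn and Dut, the 2 genes that fell, are not among them.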

How the data were processed

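Polyadenylated RNA of 2 infarcted and 2 uninjured hearts was sequenced as single-end 50 bp reads on an Illumina GAII, per the labels' protocols. The authors deposited raw counts per Ensembl gene, and a table of percent inclusion of exons and percent use of splice sites with corrected reads. Their genome build is mm9, per the submitters' processing notes; the labels name no aligner or counter. Symbols, transcript lengths and overlaps came from GENCODE M21 on GRCm38, which named 20450 of 21552 genes; promoters came from RefSeq.

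Counts were tested with edgeR 4.0.16 in R 4.3.3 (TMM, filterByExpr, robust quasi-likelihood F-test) with Benjamini-Hochberg adjustment over 13905 genes and a threshold of 0.05. The SE is the size of the log2 fold change over the square root of F. With 2 residual degrees of freedom, the biological coefficient of variation was 19.3%. Log2 CPM of library pairs correlated at 0.916 to 0.986 across the genes tested, which are not replicates. Splicing was tested as the form-by-group interaction with a library term, on rounded reads, for events with at least 10 reads in each library and 5 of each form. The scripts were tested on simulated data.

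The labels give no batch. Alternatives were RLE factors, library totals, no filter, DESeq2 1.42.0, limma-voom (limma 3.58.1), a replicate block, removal of the length trend and each library left out; DESeq2 with each library left out was added after the data were seen. Where a library was left out, the lone sample of its group was assumed to vary like the other group. The genes and lists were chosen with earlier results of these data known. Named genes are the 38 and, in each further list, up to 4 with the smallest p; the others were named where few were called, after their values were seen. Erythroid markers, 1 called higher and 2 lower of 6, were also read.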

Additional observations from a re-analysis of the deposited data

How the results depend on the processing

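Of the 38 genes, 21 were called higher and 2 lower. These counts were within 1.5 times under every setting on all 4 libraries. Across edgeR and DESeq2 fits that left out 1 library they ranged from 0 to 25 higher and from 0 to 2 lower (DESeq2 from 9 to 21 higher, with 12 without uninjured replicate 2), with the edgeR median log2 fold change from 0.45 to 1.42. Over all genes these fits called 338 to 2100 higher and 60 to 1903 lower in edgeR. Library totals as the scale moved the median of all genes to 0.36 and called 4386 higher and 786 lower, since this setting drops the normalization factors.

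Some values turned sign, all in genes that were not called. With library totals the log2 fold change was 0.073 for Gins1, 0.18 for Rfc3 and 0.014 for Rfc4. With the length trend removed it was 0.18 for Gins1 and 0.050 for Rfc4. Left-out libraries gave ranges that crossed 0: from -0.71 to 0.0043 for Gins1, -0.084 to 0.54 for Gins3, -0.18 to 0.37 for Orc6, -0.014 to 0.81 for Pola1, -0.28 to 0.27 for Pold1 and -0.44 to 0.058 for Rfc3.

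In the further lists, library totals gave 0 other replication factors lower, 6 other nucleotide supply genes higher, 10 chromatin genes higher and 0 lower, and 14 G1/S genes higher and 1 lower. The length trend removed left 0 chromatin genes lower and 5 G1/S genes lower. With 1 library left out, the counts ranged from 0 to 13 higher and 0 to 5 lower for other replication factors, from 0 to 3 higher and 0 to 5 lower for other nucleotide supply, from 0 to 5 higher and 0 lower for chromatin, and from 1 to 10 higher and 1 to 2 lower for G1/S control. The cause of these shifts was not tested.

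The labels used here give same-numbered samples nothing in common but the number. Across all genes tested, the difference in log2 CPM between replicates 1 and 2 in infarcted hearts correlated at 0.11 with that in uninjured hearts. With the replicate block 23 of the 38 genes were called higher and 2 lower, with a median of 1.0, beside 21.2% and 16.8% of all genes, and 4 other replication factors were lower.

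Splicing calls were 0 also with at least 20 reads and with limma. With 2 E2F spellings, TTTGGCGC and TTTCGCGC, 10 of 31 promoters (32.3%) held a match, against 0.929% of all genes. Depth limits Orc1, with 2 and 7 reads in uninjured hearts, and the splicing of most of the 38 genes.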
